A study of Mus musculus with 6 samples.

Results

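Lhx6 lineage interneurons of the mouse hippocampus were taken as 1497 of the 50466 cell barcodes deposited for the series. A barcode was kept if it held at least 3000 unique molecular identifiers (UMIs, each standing for a captured transcript), at most 20% mitochondrial UMIs, at least 3 UMIs of Gad1 and Gad2 together, at most 1 UMI of Slc17a7 and at most 3 UMIs of Zfhx3. These limits, called the GABA gate here, left 2674 barcodes. A barcode was a member if its UMIs per 10000 of Lhx6, Nxph1, Sox6 and Sst summed to at least 2 times those of Adarb2, Vip and Npas1, and if it held at least 3 UMIs of Lhx6, Nxph1 and Sox6 together. The rule read measured counts, so the levels of these genes are described below without a test.

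The 6 droplet libraries came from the hippocampus of elderly mice. The Sevoflurane group (3 libraries) received 2% of the volatile anaesthetic sevoflurane over 6 h, and the Control group (3 libraries) air. Tissue was collected 24 h later in both groups. No strain, age in months or sex is labelled. The protocol speaks of 6 mice but ties none of them to a library, so the tests read the spread among libraries, which may be technical.

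Inhibitory interneurons of the forebrain release GABA and fall into broad developmental lineages. Those that descend from the medial ganglionic eminence keep the transcription factors Lhx6 and Sox6 and secrete peptides such as somatostatin (Sst) or hold the calcium buffer parvalbumin (Pvalb). In the hippocampus the parvalbumin cells fire rapidly onto the cell bodies and axon initial segments of pyramidal cells, and many somatostatin cells act on their distal dendrites. The Adarb2 lineage, from the caudal ganglionic eminence, is the other main branch.

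The libraries held 7068 to 9795 barcodes and 54426522 to 70741809 UMIs, and no pair shared more than 0.333% of its barcodes. Sevoflurane 1 stood apart in sex-linked genes: its members had 1119 CPM (the usual depth-scaled count, in which the values of a library share a common total) of Xist, which silences an X chromosome in females, against 0 to 0.433 CPM in the other 5 libraries, and Ddx3y, Eif2s3y and Uty, all Y-linked, were at 0. Counts of called genes are therefore also given without Sevoflurane 1.

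Members numbered 251, 243 and 274 in the Sevoflurane libraries and 237, 222 and 270 in the Control libraries. Their median depth was 9059, 8548 and 11219.5 UMIs in Sevoflurane and 9190, 10212.5 and 9286 UMIs in Control (two-sided exact permutation p = 1). The sums of counts over the members, on which all gene tests rest, came to 8056335 UMIs in the Sevoflurane group and 7727150 in the Control group.

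Members made up 49.7%, 53.5% and 54.5% of the GABA gate in Sevoflurane, against 61.2%, 56.9% and 62.1% in Control. All 3 Sevoflurane libraries lay below all 3 Control libraries, with means of 52.6 ± 2.53% and 60.1 ± 2.76% (SD, n = 3 each). The two-sided exact permutation p was 0.1, the smallest that 3 libraries against 3 can give. Of all kept barcodes, members were 3.95 ± 0.333% in Sevoflurane and 4.37 ± 0.854% in Control, and these groups overlapped (exact permutation p = 0.5). GABA-gate barcodes in neither lineage were 14.6 ± 1.45% of the gate in Sevoflurane and 10.3 ± 0.905% in Control, with no overlap (exact permutation p = 0.1). The Adarb2 lineage was 32.8 ± 1.91% and 29.6 ± 3.56%, with overlap (exact permutation p = 0.3). The limit on Zfhx3 moved with the groups: it removed 44, 59 and 59 GABAergic barcodes in the Sevoflurane libraries and 6, 4 and 8 in the Control libraries. Of those, 19, 24 and 29 in Sevoflurane and 2, 1 and 5 in Control passed the lineage conditions.

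**Figure D1:**
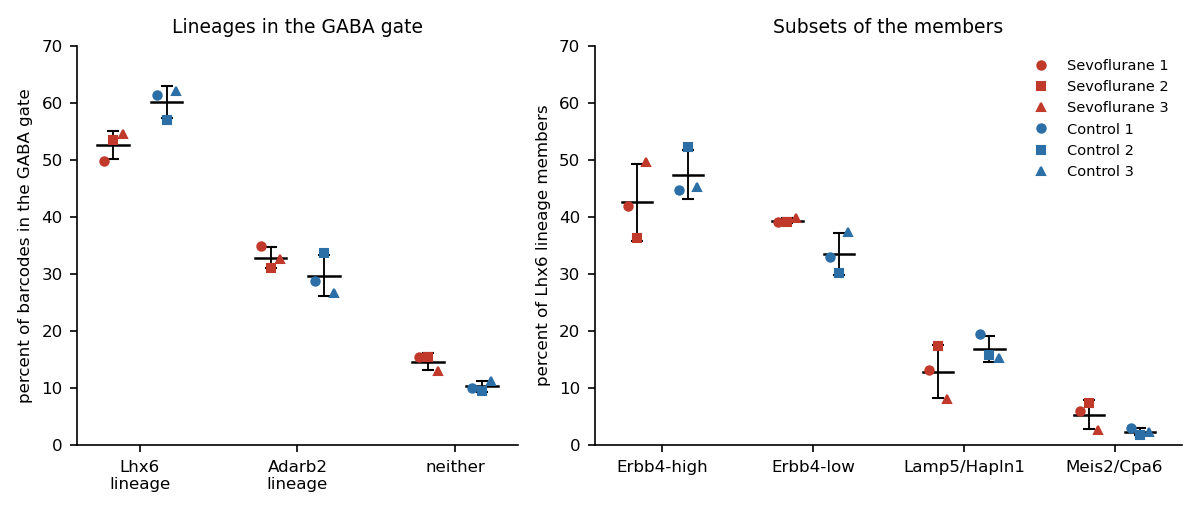
Left, percent of GABA-gate barcodes in each lineage; right, percent of members in each of 4 subsets, by library (points), with mean and SD over 3 libraries. The 3 Sevoflurane libraries lie below the 3 Control libraries in the Lhx6 lineage share and above them in the Erbb4-low share.

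The markers of the label were checked against the members. Nxph1, a secreted ligand of neurexins, carried the rule: it gave 81.7% to 86.4% of the UMIs of the 4 lineage genes and was seen in 98.4% to 99.5% of the members of a library. Sox6 was seen in 56.0% to 68.9% of members and Lhx6 in 37.4% to 50.7%. Neither Lhx6 nor Sox6 had a UMI in 62, 65 and 44 members of the Sevoflurane libraries and in 38, 43 and 35 of the Control libraries. After every barcode had been thinned to 3000 UMIs, Lhx6 was seen in 16.4% to 22.7% of members, in 0% to 1.72% of the Adarb2 lineage and in 0.0689% to 0.561% of excitatory neurons. Lhx6 was part of the rule, so these shares describe the members and are no test of them. The rule's edges were thin: 24 members had a ratio from 2 to 2.5, and 26 barcodes missed it with a ratio from 1.5 to 2.

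The Sst and Pvalb of the label were weaker. Sst averaged 0.883 to 1.36 UMIs per member. At 3000 UMIs it was seen in 14.9% to 29.5% of members, against 6.87% to 19.9% of the Adarb2 lineage and 7.69% to 10.96% of excitatory neurons, which should lack it. Unthinned shares were 39.2% to 59.9% of members and 26.3% to 31.9% of excitatory neurons, at median depths of 8548 to 11219.5 UMIs and 10185 to 13068.5 UMIs. Pvalb at 3000 UMIs was seen in 6.17% to 9.26% of members and in 0.842% to 1.93% of excitatory neurons (16.5% to 24.5% and 2.60% to 5.61% unthinned). Members with at least 10 Sst UMIs per 10000, taken as the Sst type, numbered 4, 4 and 0 in Sevoflurane and 0, 1 and 0 in Control. Their share was 1.08 ± 0.936% in Sevoflurane and 0.1502 ± 0.260% in Control (exact permutation p = 0.4), and a count of 0 allowed up to 1.09% to 1.27%. Sst is a gene of the rule and the type held 9 barcodes in all, so this test decides nothing about the Sst type. Members with fewer Sst UMIs and at least 2 UMIs of Pvalb numbered 12, 12 and 24 in Sevoflurane and 18, 16 and 24 in Control. The members are therefore described by the genes that divide them, not by these 2 types.

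Erbb4, the neuregulin receptor of interneurons, divided the members. The 4 subsets below were chosen after the values were seen, so their levels carry no test. Members with at least 3 UMIs of Meis2 and Cpa6 together were set apart first (57). Next came members with at least 2 UMIs per 10000 of Lamp5, Hapln1 and Adarb2 together, if that sum exceeded Sox6 plus Satb1 (219). They are called Lamp5/Hapln1 members. The others were split at 40 Erbb4 UMIs per 10000 into Erbb4-high (673) and Erbb4-low (548). Between 30 and 50 Erbb4 UMIs per 10000 lay 63 members, 103 were near the limit for Lamp5, Hapln1 and Adarb2, and 36 near that for Meis2 and Cpa6.

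Erbb4-high members, 45.0% of all, had a pooled 11948 CPM of Erbb4, under the 13833 CPM of the Lamp5/Hapln1 members. Erbb4-high members had the most Pvalb, 55.0 CPM against 10.3 CPM in Erbb4-low members. They also led in Kcnc2 (2936 CPM) and Kcnc1 (399 CPM), which encode the fast potassium channels of rapidly firing cells, in Btbd11 (662 CPM) and in Slit2 (560 CPM), a secreted axon guidance factor.

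Erbb4-low members, 36.6% of all, had 1089 CPM of Erbb4 and the most Sst, 228 CPM against 48.1 CPM in Erbb4-high members. They held 662 CPM of Grin3a, an NMDA receptor subunit, and 181 CPM of Elfn1, a postsynaptic adhesion protein known to shape the input synapses of somatostatin cells, against 118 and 25.9 CPM in Erbb4-high members. Reln, which encodes the secreted protein reelin, stood at 735 CPM, and Npy, neuropeptide Y, at 68.5 CPM, against 63.0 and 14.5 CPM.

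The Lamp5/Hapln1 members, 14.6% of all, had the most Lhx6 (100.3 CPM pooled) and Nxph1 (3535 CPM) but little Sox6 (44.2 CPM) and Satb1 (11.04 CPM). The cut itself selected for low Sox6 and Satb1. They held 239 CPM of Nos1, neuronal nitric oxide synthase, 251 CPM of Vcan, a matrix proteoglycan, and 2479 CPM of Cacna2d1, against 83.0 to 379.6 CPM of Cacna2d1 in the other subsets. Their Adarb2, also part of the cut, stood at 410.5 CPM, under the 12183 CPM of the Adarb2 lineage.

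The Meis2/Cpa6 members, 3.81% of all, went against the label when pooled. Their Lhx6 stood at 13.2 CPM, against 68.8 to 100.3 CPM in the other subsets, and 38 of the 57 held no UMI of Lhx6 or Sox6. That was 34 of 40 in Sevoflurane but 4 of 17 in Control, so this subset differed between the groups. They held 608 CPM of Meis2, a homeobox factor, 1230 CPM of Ryr3 and 1133 CPM of Grm8. Their share was 5.98%, 7.41% and 2.55% of members in Sevoflurane and 2.95%, 1.80% and 2.22% in Control. The calls lost without them are named after the gene results.

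**Figure D2:**
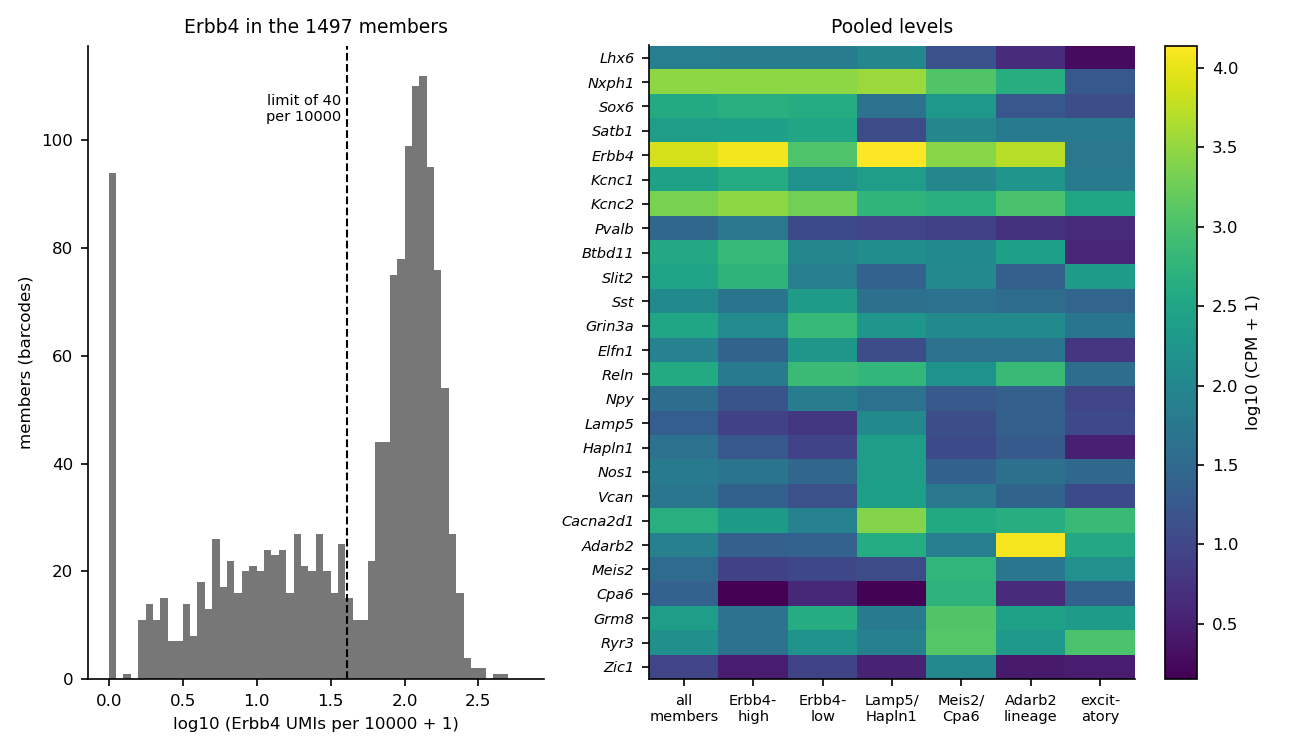
Left, number of members by Erbb4 level (log10 of UMIs per 10000 plus 1), with the limit between the Erbb4-low and Erbb4-high subsets dashed; right, pooled level (log10 of CPM plus 1) of 26 genes in all members, their 4 subsets, the Adarb2 lineage and excitatory neurons. Erbb4 shows a main peak above the limit and a broad lower tail, and each subset has its own block of genes.

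Erbb4-low members were 39.0%, 39.1% and 39.8% of members in Sevoflurane and 32.9%, 30.2% and 37.4% in Control. The groups did not overlap in this share. Lamp5/Hapln1 members were 13.1%, 17.3% and 8.03% in Sevoflurane and 19.4%, 15.8% and 15.2% in Control, with overlap. Erbb4 was itself called lower with sevoflurane, so a fall of Erbb4 and a larger share of Erbb4-low members cannot be told apart here.

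As a description, the genes that set the members furthest above the Adarb2 lineage, at 100 CPM or more and ranked with 5 CPM added to both means, were led by Il1rapl2, a synaptic adhesion protein of the interleukin-1 receptor family, at 767 ± 107 CPM in members and 49.4 ± 15.4 CPM in the Adarb2 lineage (SD, n = 6 libraries). Slit2, Tmem44, the calcium channel subunit Cacna2d2, Utrn and Nek7 followed, at plain ratios of 12.7, 10.4, 7.14, 6.43 and 7.84. The transcription factor Sox5 (500.8 ± 60.1 against 85.7 ± 31.8 CPM) and the receptor phosphatase Ptprt (1515 ± 221 against 289.7 ± 59.9 CPM) were also among the first 12. Over excitatory neurons, by the same ranking, the first 2 were Erbb4, at 7764 ± 1154 against 53.9 ± 13.1 CPM, and Kcnmb2, an accessory subunit of large-conductance potassium channels, at 1212 ± 116 against 17.9 ± 7.98 CPM. By plain ratio the kainate receptor gene Grik1 was 48.9 times higher, the transcription factor gene Maf 85.8 times and the interneuron transcript Dlx6os1 109.8 times.

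Sevoflurane was compared with Control over the summed counts of the members with the quasi-likelihood test of edgeR, adjusted by Benjamini-Hochberg over the 12077 genes that passed the filter on low counts, of which 12053 lay outside the rule. At an adjusted p under 0.05, 142 genes were called, 1.18% of those tested. Of these, 45 were higher with sevoflurane (0.373%) and 97 lower (0.805%). Groups that did not overlap, called or not, were found for 18.3% of the genes, 8.52% in the higher and 9.74% in the lower direction. Without Sevoflurane 1 there were 116 calls, and without the Meis2/Cpa6 members 85 (0.712%), 19 higher and 66 lower.

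The lower calls were longer and more highly expressed than the genes tested as a whole. Their median span in the GENCODE M21 annotation was 267.9 kb and their median level 317.9 CPM, against 29.8 kb and 26.1 CPM over all genes tested. The higher calls had medians of 124.5 kb and 23.7 CPM. Across 12049 genes the Spearman correlation of span and log2 fold change was -0.19, so lists of long or short genes may lean in sign. With a smooth trend on gene span taken out of each library, 102 genes were called, 51 higher and 51 lower. With the mean of per-cell values in limma, 78 were called, 39 higher and 39 lower. The part of span in single calls was not tested beyond this setting.

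The genes of the rule itself are given as levels. Nxph1 had 2645, 2096 and 2534 CPM in Sevoflurane and 3389, 3677 and 3356 CPM in Control, with no overlap. Sox6 had 331 ± 56.3 CPM in Sevoflurane and 458 ± 51.6 CPM in Control, and Lhx6 64.8 ± 7.08 and 77.7 ± 8.16 CPM. Sst had 118 ± 5.91 CPM in Sevoflurane and 110.3 ± 23.2 CPM in Control, with overlap, and Gad1, which encodes a GABA-synthesizing enzyme, had 358 ± 5.00 and 385 ± 22.2 CPM. The summed level of 20 Lhx6 lineage markers, rule genes included, was 13535 to 15901 CPM in Sevoflurane and 18295 to 19146 CPM in Control. Of its 14 tested genes 3 fell, Erbb4, Grin3a and Dlx6os1, and none rose.

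Of 20 tested potassium channel genes of fast spiking and dendrites, 1 fell and none rose, with a list median of -0.14 against 0.01 over all genes. The 1 was Kcnab1, a beta subunit of Kv1 channels (443.8 ± 21.3 CPM in Sevoflurane and 583 ± 19.7 CPM in Control, log2 fold change -0.39, adjusted p = 0.0363 in edgeR), which lost its call whichever library was left out (adjusted p up to 0.156). Kcnc2, the Kv3.2 channel of fast-spiking cells, had 2072, 1441 and 1912 CPM in Sevoflurane and 2445, 2552 and 2696 CPM in Control. These groups did not overlap, but the adjusted p was 0.0535 in edgeR.

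Of 22 tested sodium and calcium channel genes, 3 fell and none rose (list median -0.11). Cacna2d1 encodes an auxiliary subunit that carries calcium channels to the surface and binds gabapentin. It had 307, 378 and 258 CPM in Sevoflurane and 743, 759 and 502 CPM in Control. Its log2 fold change of -1.09 (SE 0.16, adjusted p = 0.00508 in edgeR) was the third largest fall among calls at 50 CPM or more, after Ttr and 9630014M24Rik. It held in the 6 fits without a library (adjusted p up to 0.0243). Most of its transcript lay in the Lamp5/Hapln1 members. Its log2 fold change was -0.86 within them, -0.75 in Erbb4-high members (not called) and 0.26 in Erbb4-low members (not called). With the Lamp5/Hapln1 members left out it was -0.63 and not called, and at a fixed mix of the 4 subsets in limma it was -0.67 and called.

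Fgf13 and Fgf12 encode intracellular fibroblast growth factor homologues that bind sodium channels. Fgf13 had 766, 898 and 833 CPM in Sevoflurane and 1415, 1450 and 1142 CPM in Control (log2 fold change -0.68, SE 0.10, adjusted p = 0.00618 in edgeR). With the 4 subsets held at a fixed mix in limma its change was -0.33 and it was not called. Fgf12 averaged 2157 ± 353 CPM in Sevoflurane and 3062 ± 157 CPM in Control (log2 fold change -0.51, adjusted p = 0.0424 in edgeR), and kept its call in 1 of the 6 fits, the one without Sevoflurane 3. The pore-forming sodium channel gene Scn1a had 403 CPM in Sevoflurane and 483 CPM in Control and was not called.

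Among receptors for GABA, Gabrb2, the beta2 subunit of GABA-A receptors, had 441, 439 and 428 CPM in Sevoflurane and 671, 768 and 631 CPM in Control. The Sevoflurane libraries were close to each other and all lower, with a log2 fold change of -0.66 (SE 0.09, adjusted p = 0.00349 in edgeR; up to 0.0199 without a library). It was -0.47 in Erbb4-high, -0.52 in Erbb4-low and -0.59 in Lamp5/Hapln1 members, with no call in any subset alone. It was the only call among 14 tested GABA-A receptor and anchoring genes (median -0.15, 12 of 14 negative).

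Of 8 tested genes of GABA-B receptors and their partners, 2 fell. Kctd16, a receptor-associated subunit, had 619, 616 and 528 CPM in Sevoflurane and 758, 924 and 871 CPM in Control (log2 fold change -0.54, SE 0.10, adjusted p = 0.0175 in edgeR). Kcnj3, a subunit of the potassium channel that these receptors open, had 318 ± 45.2 CPM in Sevoflurane and 468 ± 23.9 CPM in Control (-0.56, adjusted p = 0.0178 in edgeR). Kctd16 lost its call without Control 2, Control 3 or Sevoflurane 3 (adjusted p up to 0.0987). Kcnj3 lost it without Control 2, Control 3, Sevoflurane 2 or Sevoflurane 3 (up to 0.092). The receptor subunits Gabbr1 and Gabbr2 were not called. Nor was any of the 8 tested genes of GABA synthesis, packaging and uptake, where the vesicular transporter Slc32a1 had 42.7 ± 12.1 CPM in Sevoflurane and 33.0 ± 3.01 CPM in Control.

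Of 15 tested AMPA, kainate and NMDA receptor genes, 2 fell and none rose (median -0.23, 12 negative). Grik1, a kainate receptor subunit prominent in interneurons, had 1244, 1182 and 1381 CPM in Sevoflurane and 2027, 1800 and 1756 CPM in Control (log2 fold change -0.55, SE 0.09, adjusted p = 0.0095 in edgeR; up to 0.0461 without a library). Among members with a UMI of Lhx6 or Sox6 the change of Grik1 was -0.43 and not called. Grin3a had 271, 212 and 281 CPM in Sevoflurane and 386, 409.6 and 429 CPM in Control (-0.68, SE 0.11, adjusted p = 0.00784 in edgeR; up to 0.0406). Grin3a is mainly a gene of Erbb4-low members, whose share was higher in Sevoflurane. Its change was -0.77 within them and -0.68 at a fixed mix in limma. Gria1 (3760 CPM in Sevoflurane and 4583 CPM in Control) and Gria4 (1885 and 2404 CPM) did not overlap between groups but had adjusted p of 0.148 and 0.0772 in edgeR.

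Grm8, a presynaptic glutamate receptor, was called higher, with 318, 271 and 269.5 CPM in Sevoflurane and 228, 149 and 165 CPM in Control (log2 fold change 0.66, SE 0.14, adjusted p = 0.0353 in edgeR). Without the Meis2/Cpa6 members, where it was highest, its change was 0.27 and it was not called. It also lost its call in every fit without a library except the one without Control 1 (adjusted p up to 0.154).

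**Figure D3:**
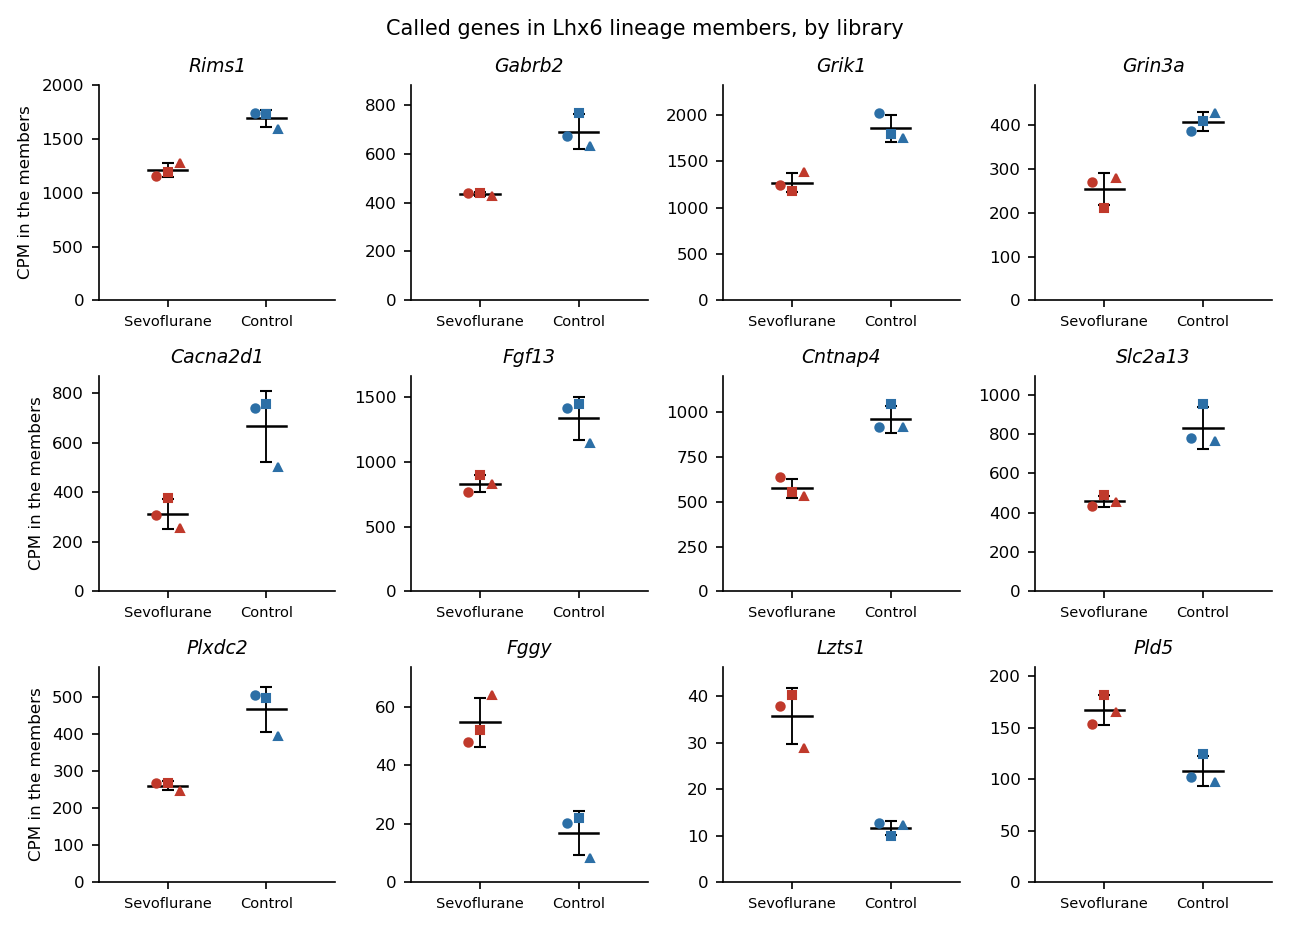
Level of 12 called genes (CPM over the summed counts of the members) by library, Sevoflurane left and Control right, with mean and SD over 3 libraries; each axis starts at 0. The first 9 genes are lower and the last 3 higher in all Sevoflurane libraries than in all Control libraries.

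Genes of transmitter release gave 2 falls and no rise among 25 tested (median -0.07). Rims1, a scaffold of the active zone, had 1156, 1196 and 1280 CPM in Sevoflurane and 1744, 1729.5 and 1596 CPM in Control (log2 fold change -0.48, SE 0.08, adjusted p = 0.0122 in edgeR), with no call without Control 1 or Control 2 (adjusted p up to 0.0611). Syt1, the calcium sensor of fast release, had 3223 ± 76.9 CPM in Sevoflurane and 4343 ± 433 CPM in Control (-0.43, adjusted p = 0.0353 in edgeR). It kept its call only without Control 3 among the 6 fits (up to 0.155). Snap25, a core fusion protein, had 939.7 ± 46.6 CPM in Sevoflurane and 942 ± 27.8 CPM in Control.

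Among 26 tested synaptic adhesion genes 3 fell and none rose (median -0.10). Cntnap4, a neurexin-family protein known from the synapses of interneurons, had 636, 557 and 534 CPM in Sevoflurane and 917, 1047 and 918 CPM in Control. The groups lay far apart (log2 fold change -0.74, SE 0.09, adjusted p = 0.00227 in edgeR; up to 0.0135 without a library). Erbb4 had 6646, 5986 and 7400 CPM in Sevoflurane and 8778, 9923 and 8534 CPM in Control (-0.44, SE 0.10, adjusted p = 0.0424 in edgeR). It was called in only 1 of the 6 fits without a library, the one without Sevoflurane 3 (up to 0.18). Lrrtm3, a postsynaptic partner of neurexins, had 334 ± 21.9 CPM in Sevoflurane and 447 ± 26.7 CPM in Control (-0.42, adjusted p = 0.0364 in edgeR) and lost its call in all 6 (up to 0.156). Nrxn3 had 8678 CPM in Sevoflurane and 9255 CPM in Control and was not called.

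Of 17 tested lineage transcription factor genes, Zeb2 and Tcf4 fell and none rose. Zeb2, which acts in the specification of these interneurons, had 746, 746 and 754 CPM in Sevoflurane and 1057, 1095 and 1032 CPM in Control (log2 fold change -0.50, SE 0.08, adjusted p = 0.00679 in edgeR; up to 0.0413 without a library). Tcf4 had 2211 ± 44.5 CPM in Sevoflurane and 2920 ± 153 CPM in Control (-0.40, adjusted p = 0.0279 in edgeR) and was called only without Control 3 among the 6 fits. Dlx6os1, a noncoding RNA opposite Dlx6, had 164 ± 6.95 CPM in Sevoflurane and 248 ± 35.0 CPM in Control (-0.60, adjusted p = 0.0137 in edgeR). Its reads could not be told from its partner's here, since the strand setting of the counting was not given in the sources used here. It lost its call without Control 1 or Control 3 (adjusted p up to 0.0656).

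The largest falls among calls of at least 20 CPM include genes of other roles. Slc2a13, a myo-inositol transporter, had 433, 488 and 456 CPM in Sevoflurane and 779, 954 and 763 CPM in Control (log2 fold change -0.86, SE 0.10, adjusted p = 0.00215 in edgeR; up to 0.00948 without a library). Plxdc2, a transmembrane protein with a plexin domain, had 267, 269.5 and 247 CPM in Sevoflurane and 507, 498 and 396 CPM in Control (-0.84, SE 0.10, adjusted p = 0.00227 in edgeR). Both were lower in every Sevoflurane library. In Erbb4-high, Erbb4-low and Lamp5/Hapln1 members alone the log2 fold change was -0.58, -0.36 and -1.02 for Slc2a13 and -0.61, -0.30 and -0.85 for Plxdc2, each called only in the last. Chst9, a sulfotransferase, averaged 10.6 ± 3.03 CPM in Sevoflurane and 31.3 ± 3.87 CPM in Control (-1.58). The noncoding transcript 9630014M24Rik (-1.10), the kinase gene Prkd1 (-0.90), the vesicle gene Sytl5 (-0.90) and Tmem44 (-0.80) also held in all 6 fits without a library. Plxdc2 (-0.78 and -0.62), 9630014M24Rik (-1.15 and -0.81) and Sytl5 (-1.15 and -1.59) were also called lower in the Adarb2 lineage and in excitatory neurons. Slc2a13, Prkd1 and Tmem44 were called in neither class, and Chst9 only in excitatory neurons (-1.02). Vcan, high in the Lamp5/Hapln1 members and also a marker of oligodendrocyte precursors, had 39.1 ± 9.34 CPM in Sevoflurane and 66.7 ± 3.73 CPM in Control (-0.79, adjusted p = 0.0353 in edgeR), and kept its call only without Sevoflurane 1 or Sevoflurane 2 among the 6 fits. With the Lamp5/Hapln1 members left out its change was -0.32 and it was not called. It was the only call among 9 tested perineuronal net genes and among 6 precursor markers. Sntb1 (-0.91) and Sav1 (-0.98), a scaffold of the Hippo pathway, lost their calls without Control 1 or Control 3, among other libraries.

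Ttr had the largest fall. It encodes transthyretin, a carrier protein made by the choroid plexus. It had 2.83, 2.88 and 0.597 CPM in the members of Sevoflurane and 111, 50.9 and 293.8 CPM in those of Control (log2 fold change -6.26, SE 0.73, adjusted p = 0.00215 in edgeR). The log2 fold change was -5.78 in the Adarb2 lineage and -7.04 in excitatory neurons. The summed level of 10 choroid plexus and ependymal markers in the members was 15.1 to 28.1 CPM in Sevoflurane and 52.5 to 297 CPM in Control. Aqp1 and Otx2 of that list had under 10 UMIs in all members, and Ttr was its only gene high enough to test. At 3000 UMIs Ttr was seen in 0.365% to 65.2% of members and in 0.25% to 51.7% of excitatory neurons of the libraries.

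The largest rises were of low level. Fggy, a carbohydrate kinase gene, had 48.1, 51.9 and 64.2 CPM in Sevoflurane and 20.3, 21.99 and 8.24 CPM in Control. All Sevoflurane libraries were higher, a log2 fold change of 1.73 (SE 0.25, adjusted p = 0.00491 in edgeR; up to 0.0148 without a library), and it was 1.64 in Erbb4-high and 2.06 in Erbb4-low members alone. The log2 fold change of Fggy was 1.56 in the Adarb2 lineage (called) and 1.81 in excitatory neurons (not called). The uncharacterized transcript 2810049E08Rik had 71.5, 96.8 and 89.5 CPM in Sevoflurane and 41.4, 44.0 and 37.1 CPM in Control (1.08, SE 0.14, adjusted p = 0.00227 in edgeR). Its change was 1.10, 0.95 and 1.42 in the Erbb4-high, Erbb4-low and Lamp5/Hapln1 members. It was 1.09 in the Adarb2 lineage and 1.08 in excitatory neurons, called in both.

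The uncharacterized loci Gm9866, Gm46102 and Gm31282 rose by 1.18, 1.03 and 0.998 on the log2 scale, and each lost its call without 2 or more of the libraries.

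Several other rises were smaller without the Meis2/Cpa6 members. Lzts1, a protein of postsynaptic densities, had 37.99, 40.4 and 29.0 CPM in Sevoflurane and 12.8, 9.92 and 12.4 CPM in Control (log2 fold change 1.59, SE 0.19, adjusted p = 0.00227 in edgeR). Without the Meis2/Cpa6 members it was 1.07 and called. Ephb1, an ephrin receptor gene, changed by 1.45 and by 1.30 without them, called both times. Ano1, a calcium-activated chloride channel gene (1.55), Prdm16 (1.63), Ryr3, a calcium release channel gene (1.196), 2010300C02Rik (1.10) and A330008L17Rik (0.94) were not called without them, at 1.05, 1.27, 0.64, 0.62 and 0.84. The Erbb4-low subset holds no Meis2/Cpa6 members. In it alone Lzts1 (2.30), Ephb1 (1.77), Ano1 (2.14), Prdm16 (2.05) and Ryr3 (0.98) were called. There 2010300C02Rik (0.77) and A330008L17Rik (0.70) were not called. In Erbb4-high members alone none of those tested was called, and Prdm16 was not tested. Among members with a UMI of Lhx6 or Sox6 none of these 7 genes was called: the log2 fold changes were 0.56 for Lzts1, 0.22 for Ephb1, 0.53 for Ano1, -0.52 for Prdm16, 0.10 for Ryr3, 0.21 for 2010300C02Rik and 0.90 for A330008L17Rik. Zic1, of the list of Zfhx3-high and subpallial markers, had 20.2, 22.3 and 6.57 CPM in Sevoflurane and 0.414, 2.59 and 2.25 CPM in Control (3.14, SE 0.55, adjusted p = 0.0129 in edgeR). Unlike those 7, its change was not smaller without the Meis2/Cpa6 members, at 3.46 and called. It lost its call without Control 1 or Sevoflurane 2 (adjusted p up to 0.0553). At a fixed mix of subsets in limma its change was 1.21 and not called. That setting adds 5 CPM to each level, which shrinks changes of genes this low. The summed level of that list of 12 genes was 99.0 to 202 CPM in Sevoflurane and 71.3 to 136 CPM in Control. Its part in these rises was not tested.

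Lists of stress, activity and metabolism gave 1 rise, in sterol synthesis, and 1 fall, among clock genes. Of 20 tested sterol synthesis genes 19 were positive (median 0.33), but only Cyp51, a demethylase of the cholesterol pathway, was called, with 40.4, 49.5 and 42.4 CPM in Sevoflurane and 23.2, 26.3 and 29.98 CPM in Control (log2 fold change 0.73, SE 0.15, adjusted p = 0.036 in edgeR). It kept this call only without Sevoflurane 1 among the 6 fits (adjusted p up to 0.138). Of 21 unfolded protein response genes 17 were negative (median -0.28) and none was called. The endoplasmic reticulum chaperone gene Hsp90b1 had 73.9 ± 10.7 CPM in Sevoflurane and 99.7 ± 4.40 CPM in Control (adjusted p = 0.0976 in edgeR). Of 17 tested immediate-early genes, which follow recent activity, 15 were positive (median 0.44) and none was called. Nr4a3 among them had 19.4, 35.0 and 9.25 CPM in Sevoflurane and 8.28, 4.74 and 6.75 CPM in Control (1.63, adjusted p = 0.0906 in edgeR). All 37 ribosomal protein genes were positive (median 0.21), and none was called. Over all genes tested 6241 of 12053 were positive. In the Adarb2 lineage and excitatory neurons the medians were 0.32 and 0.30 for ribosomal protein genes and 0.73 and 0.20 for immediate-early genes. For sterol synthesis genes they were 0.43 and 0.16, and for unfolded protein response genes -0.14 and -0.28. No call was made among 36 nuclear oxidative phosphorylation genes (median 0.16), 13 cytosolic chaperones, 14 glucocorticoid-responsive genes or 18 peptide and granin genes outside the rule. Npy had 36.3 ± 8.01 CPM in Sevoflurane and 41.8 ± 5.21 CPM in Control. Of 18 clock genes only Rorb was called (-1.24, adjusted p = 0.0481 in edgeR), and only without Sevoflurane 3 among the 6 fits.

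**Figure D4:**
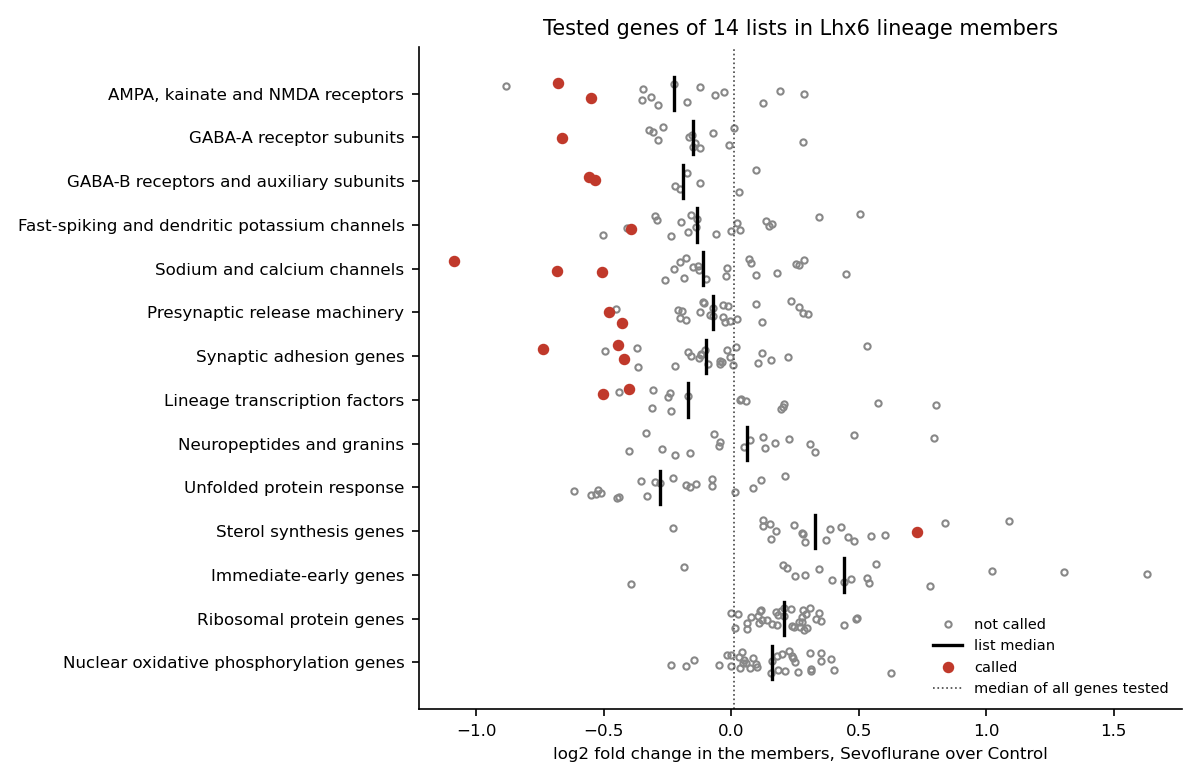
Log2 fold change of every tested gene of 14 lists in the members (open points not called, red points called), with the list median as a bar and the median of all tested genes dotted. In these lists the only call on the higher side is Cyp51; the list of metabotropic glutamate receptors, with Grm8 higher, is not drawn.

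Of 24 tested genes that earlier results of these data had shown to change in neurons, Pld5 and Klhl10 rose and Ttr, Chst9, Tmem44, Sav1 and Lrrtm3 fell. These genes were chosen on the same libraries and give no independent support. Pld5, of the phospholipase D family, had 154, 182 and 166 CPM in Sevoflurane and 102, 124 and 97.4 CPM in Control (log2 fold change 0.63, SE 0.11, adjusted p = 0.0122 in edgeR), and was not called without Control 1 or Control 3 (adjusted p up to 0.0778). Klhl10 was not called without Control 1, Control 2, Sevoflurane 2 or Sevoflurane 3 (adjusted p up to 0.138). The other 17 were not called, among them Cobl, with 12.1 CPM in Sevoflurane and 11.6 CPM in Control.

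Some settings ended calls among the 48 called genes that were named by rule. Among members with a UMI of Lhx6 or Sox6, 24 of the 46 with a value held, 21 were not called and Prdm16 turned sign. Lzts1, Ano1, Ephb1, Ryr3, Gm9866, 2010300C02Rik, Gm31282, A330008L17Rik, Sav1, Sntb1 and Grik1 lost their calls there. So did Pld5, Tcf4, Syt1, Vcan, Grm8, Cyp51, Kcnab1, Lrrtm3, Erbb4 and Rorb. With the replicate number as a block 30 of the 48 held. Without the Meis2/Cpa6 members 33 held, and Prdm16, Ano1, Ryr3, 2010300C02Rik, Gm31282, A330008L17Rik, Sntb1, Tcf4, Vcan, Grm8, Kcnab1, Lrrtm3, Erbb4, Rorb and D030068K23Rik did not. With the trend on gene span removed 36 held, and Sntb1, Rims1, Kctd16, Kcnj3, Tcf4, Syt1, Vcan, Kcnab1, Lrrtm3, Fgf12, Erbb4 and Rorb did not. In limma 36 held on per-cell means and 31 at a fixed mix of the 4 subsets, where Ephb1, Ryr3, Sav1, Sntb1, Fgf13, Rims1, Zic1, Dlx6os1, Kctd16, Kcnj3, Tcf4, Syt1, Vcan, Grm8, Kcnab1, Lrrtm3 and Erbb4 were not called. The subsets were cut on Erbb4, so that setting is no check of Erbb4. With the Lamp5/Hapln1 members left out 38 held, and Cacna2d1, Sntb1, Prkd1, Rims1, Kctd16, Klhl10, Vcan, Grm8, Cyp51 and Erbb4 did not.

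Markers of other cells were summed in the members. Astrocyte markers stood at 230.2 to 264.9 CPM in Sevoflurane and 201.6 to 352 CPM in Control, and oligodendrocyte markers at 262 to 366 and 214 to 416 CPM, both with overlap and no call. Excitatory neuron markers stood at 1073 to 1440 CPM in Sevoflurane and 997 to 1150 CPM in Control, and Adarb2 lineage markers at 330 to 401 and 369.8 to 421 CPM. Microglia markers stood at 62.6 to 73.6 CPM in Sevoflurane and 65.4 to 73.5 CPM in Control, and endothelial and mural markers at 15.9 to 24.9 and 15.1 to 27.6 CPM. Their part in the calls was not tested.

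The sevoflurane effect in the members was then set against that in 8777 excitatory neurons and in 839 Adarb2 lineage interneurons of the same libraries, with edgeR's test of the interaction of class and group and the library as a block. Against excitatory neurons the difference was called for 72 of 16204 genes (0.444%), with the effect more positive in the members for 61 and more negative for 11. Leaving out a library gave 26 to 98 calls, the fewest without Control 2, and 34, 37 and 36 without Sevoflurane 1, Sevoflurane 2 and Control 3. Without the Meis2/Cpa6 members 29 were called. Of the 142 genes called in the members, 129 changed with the same sign in excitatory neurons, and 40 were called there. The difference was called for 20 of the 142.

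Fgf13 had a log2 fold change of -0.68 in the members and -0.07 in excitatory neurons (edgeR interaction, adjusted p = 0.0101). For Slc2a13 the values were -0.86 and -0.26 (adjusted p = 0.00647 in edgeR), and for Cacna2d1 -1.09 and -0.30 (adjusted p = 0.0353 in edgeR). These 3 falls were larger in the members. Lrrtm3 differed the other way, at -0.42 in the members and -0.95 in excitatory neurons (adjusted p = 0.0209 in edgeR). For Gabrb2, Grik1, Grin3a and Cntnap4 the difference was not called, and the log2 fold changes in excitatory neurons were -0.38, -0.82, -0.45 and -0.47.

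Against the Adarb2 lineage the difference was called for 33 of 12276 genes (0.269%), 20 more positive and 13 more negative in the members. Only 4 were called without Sevoflurane 1, 4 without Control 1 and 6 without Control 2. Of the 131 member calls also tested in the Adarb2 lineage, 117 had the same sign there, and 50 were called there. The difference was called for 5 of the 131. Cacna2d1 had a log2 fold change of -1.09 in the members and -0.16 in the Adarb2 lineage (edgeR interaction, adjusted p = 0.0194). Chst9 had -1.58 in the members and 0.02 in the Adarb2 lineage (adjusted p = 0.0215 in edgeR). For Grik1, Kctd16 and Fgf12 the difference was not called, and the log2 fold changes in the Adarb2 lineage were -0.70, -0.75 and -0.65.

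**Figure D5:**
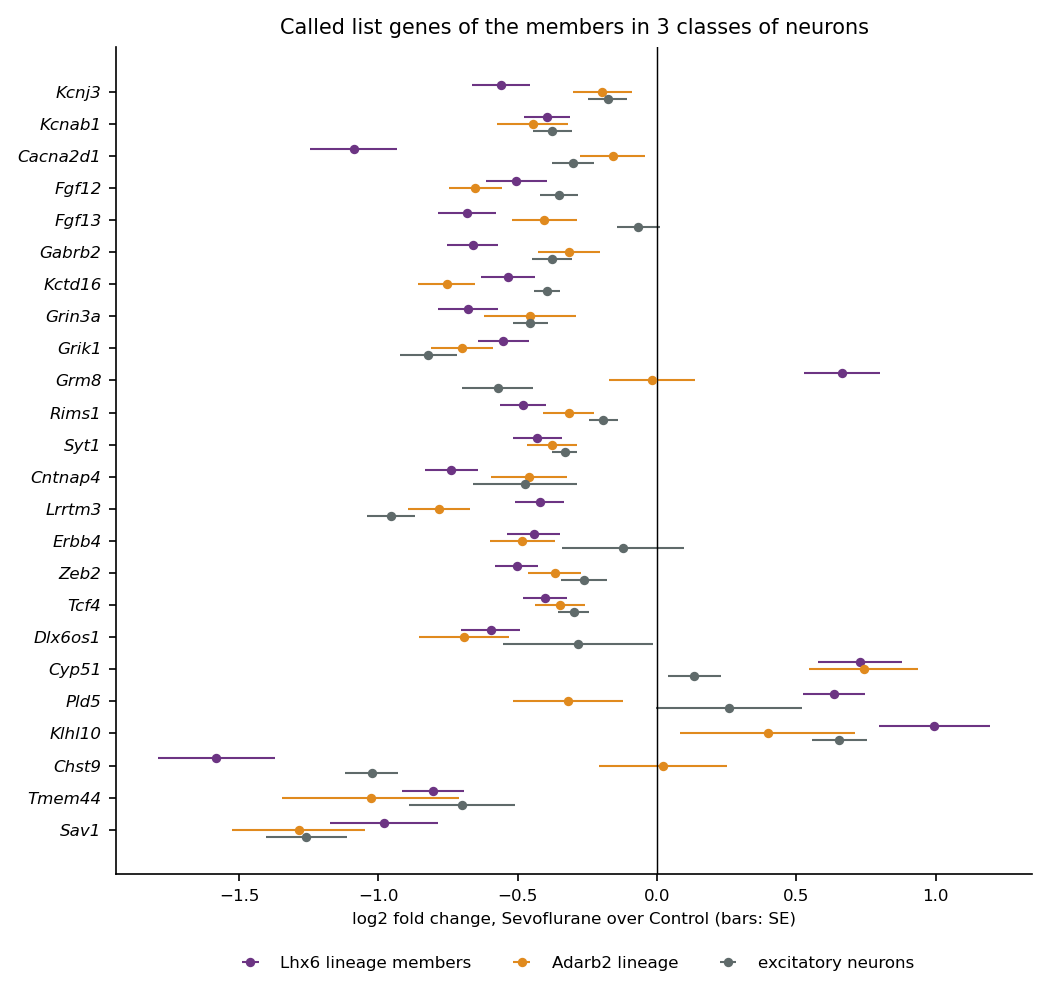
Log2 fold change (Sevoflurane over Control, bars SE) of 24 called list genes in Lhx6 lineage members, the Adarb2 lineage and excitatory neurons of the same libraries. Cacna2d1 lies further left in the members than in both other classes, and Grm8 lies right of 0 in the members at 0.66 and left of it in excitatory neurons at -0.57.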

How the data were processed

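The deposited files held UMI counts per gene and barcode from 10x Genomics Single Cell 3' v3.1 libraries, which per the file headers came from the authors' run of Cell Ranger 6.1.1. The submitters' processing notes also name CASAVA 1.8 and Seurat. Build, annotation and strand setting are not given in the sources used here, so no coordinates are printed. Gene spans came from GENCODE M21, matched by gene ID (31184 of 31253).

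Members and gene lists were chosen with earlier results of these data known. Counts were summed over the members of each library, and CPM of single genes compared between the groups used TMM-scaled library sizes. Levels of subsets, levels compared between classes, sums of marker lists and sex-linked genes used plain totals, so a gene can differ slightly between passages. Genes passing filterByExpr were tested with edgeR 4.0.16 (glmQLFit, glmQLFTest, no covariate) with BH adjustment. The alternatives used limma 3.58.1 and DESeq2 1.42.0 in R 4.3.3. Gating and thinning used Python 3.11.15, doublet scores scanpy 1.11.5, and exact permutation tests scipy 1.17.1. Interactions were fitted over 2 classes with the library as a block, except in the alternative where the replicate number replaced it. Doublets were kept in the main results. The barcodes with the highest Scrublet scores in each library were marked, at a rate fixed beforehand in proportion to the number of barcodes. Among the 1497 members 84 were marked, and they were removed in an alternative. Intervals and limits from counts of 0 (3 counts) cover counting error only.

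Named genes were the 12 largest rises and 12 largest falls among calls of at least 20 CPM without overlap, all called list genes, list genes by role, the 12 largest ratios over each other class at 100 CPM (5 CPM added to both), and the 6 smallest interaction p-values per comparison. Alternatives varied scaling, filters, gates, subsets and libraries. Some genes that the rule names are not reported here.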

Additional observations from a re-analysis of the deposited data

Results flagged for a closer look

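The 12 differences below are those with the smallest p in the 2 interaction tests of the sevoflurane effect (edgeR, members minus the other class, on the log2 scale). Against excitatory neurons they were 1.88 for Lzts1 (adjusted p = 0.000583 in edgeR), 1.26 for Grm8 (0.00143), 1.80 for Prdm16, 1.12 for 2010300C02Rik, 1.1502 for Atp2b4 and 2.43 for D030068K23Rik (0.00173 each). In this fit, which scales both classes together, so that levels differ slightly from those of the members alone, Lzts1 averaged 34.2 CPM in Sevoflurane and 11.3 CPM in Control in the members, against 47.7 and 59.2 CPM in excitatory neurons. Atp2b4, a calcium pump gene, averaged 32.3 CPM in Sevoflurane and 19.7 CPM in Control in the members, and 43.5 and 58.9 CPM in excitatory neurons. Its log2 fold change in the members alone was 0.73 and not called, 0.28 without the Meis2/Cpa6 members and -0.0178 among members with a UMI of Lhx6 or Sox6.

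Against the Adarb2 lineage they were 0.96 for Fat3 (adjusted p = 0.0107 in edgeR), 1.31 for Htr7 (0.0146), -1.38 for Gm32647 and -1.05 for Iqgap2 (0.0152 each), 2.44 for D030068K23Rik (0.0164) and 0.94 for Lhfpl3 (0.0194). Htr7, a serotonin receptor gene, averaged 64.3 CPM in Sevoflurane and 66.2 CPM in Control in the members, and 22.4 and 57.3 CPM in the Adarb2 lineage. In the members alone only D030068K23Rik of these was called, at a mean of 8.24 CPM. It lost that call in 5 of the 6 fits without a library. Lhfpl3 changed by -0.0152 in the members and -0.96 in the Adarb2 lineage, and Fat3 by 0.40 and -0.55. In the members Fat3 changed by 0.11 without the Meis2/Cpa6 members and by 0.01 with a UMI of Lhx6 or Sox6 required.

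Outside the members, the limit on Zfhx3 left out 72 barcodes of the Sevoflurane libraries that passed the lineage conditions, against 8 of the Control libraries.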

How the results depend on the processing

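Of the 142 calls, 43 (12 higher, 31 lower) were made in each of the 6 fits that left out a library. Those fits made 56 to 128 calls, with 87, 68, 56 and 77 without Sevoflurane 2, Control 1, Control 2 and Control 3. Calls numbered 502 with no filter on low counts, 74 at a mean of at least 20 CPM, 305 (125 higher, 180 lower) without the limit on Zfhx3 and 78 with limma on per-cell means. DESeq2 made 203 calls, removal of doublets 192, and the other gates and scalings 102 to 154.

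Alternatives added after seeing the data gave 85 calls without the Meis2/Cpa6 members, 83 when Sevoflurane 1 was left out too, 67 among members with a UMI of Lhx6 or Sox6 and, in limma, 74 at a fixed mix of subsets. Erbb4-high members alone gave 10 calls, Erbb4-low members 57 and Lamp5/Hapln1 members 10, from fewer cells and genes. Signs turned for Prdm16 with a UMI of Lhx6 or Sox6 required (-0.52), Ryr3 (-0.0761) and Vcan (0.18) in Erbb4-high members, Cacna2d1 (0.26) and Erbb4 (0.0382, in a subset cut on Erbb4 itself) in Erbb4-low members, and Ryr3 (-0.36) and A330008L17Rik (-1.24) in Lamp5/Hapln1 members. The cause was not tested.

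The difference from excitatory neurons gave 26 to 98 calls without a library, 296 with no filter, 124 without doublets and 29 without the Meis2/Cpa6 members. That from the Adarb2 lineage gave 4 to 38 calls without a library and 139 with no filter. With the replicate number as a block, calls were 66 in the members. With that block in place of the library block, calls were 3 against excitatory neurons and 0 against the Adarb2 lineage. Against the latter, edgeR gave 685 genes at an unadjusted p under 0.05. These interaction fits no longer compared the classes within a library, so the part of replicate number in the fewer calls was not tested. Same-numbered libraries correlated at -0.0933, -0.0589 and 0.0423 in their deviations from the group mean. With 3 libraries per group these values cannot decide whether same-numbered libraries belong together. The share of Lhx6 lineage interneurons in the GABA gate stayed lower in Sevoflurane whichever library was left out, by -9.09 to -6.08 percentage points. Expression in the Sst type alone was not run, since it held 0 to 4 barcodes per library.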
